A study of Mus musculus with 6 samples.

Results

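Imprinted genes are the subject here: 43 mouse genes known to be expressed from only, or mainly, the copy inherited from 1 parent. For some of them this is known chiefly in brain or placenta. They were listed by name, with earlier results of these data known, and 36 of the 43 had a row among the 14162 genes measured. Of the 36, 18 are known as paternally expressed and 17 as maternally expressed, and Gnas makes transcripts of both kinds. Meg3, Airn, Kcnq1ot1, Peg13, Snrpn, Slc22a18 and Kcnk9 were not analysed here. Gm38393, a gene model that shares exon bases with Snrpn on the same strand, had 552 to 872 reads per library and a log2 difference of -0.09, with overlapping groups, and whether its reads include those of Snrpn is not known. RNA had been sequenced from lungs of mouse embryos at E12.5, in 3 libraries labelled ShhCre-Dnmt1KO (called Dnmt1KO here) and 3 from wild-type littermates (called WT). Dnmt1 encodes the maintenance DNA methyltransferase, and Shh-driven Cre recombinase acts in the airway epithelium and its endodermal precursors. Whole lung is the only tissue named, so each library also holds RNA of mesenchyme, vessels and blood, in most of which Shh is not known to be active. Labels name Cre in the Dnmt1KO group only, so an effect of the Cre allele cannot be told apart from that of Dnmt1 loss. Separate embryos are not stated as the source of the replicates, and p-values therefore measure the spread between these libraries, which may be technical in part. Dnmt1KO replicate 1 had almost no reads of Y-linked genes, so its source differed from that of the other libraries.

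Imprinting rests on DNA methylation laid down in the egg or the sperm at control regions and copied at each cell division by DNMT1. At most control regions the maternal copy carries the methylation. There the unmethylated paternal copy can express a protein-coding gene directly, as for Plagl1, Mest, Peg10, Peg3 and Nnat. In other domains it can make a long RNA that silences its neighbours in cis, so that those are maternally expressed, as for Igf2r and Cdkn1c. At the H19-Igf2 and Dlk1-Dio3 domains the paternal copy is the methylated one. In whole mouse embryos without Dnmt1, imprinted genes are known to lose their parental pattern, some becoming active on both copies and others on neither. In the fetus, many paternally expressed genes promote growth and many maternally expressed genes restrain it.

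No imprinted gene was called higher or lower in Dnmt1KO lungs by limma at an adjusted p under 0.05, where 0.282% of all genes were called higher and 0.00706% lower. The smallest adjusted p among the 36 was 0.591 (Grb10). At an unadjusted p under 0.05 there were 2, Grb10 (lower, as 1.6% of all genes) and Phlda2 (higher, as 2.92%), against 4.52% of all genes in either direction, and voom on the recovered reads also called none. The log2 differences, Dnmt1KO minus WT, ran from -0.27 (Grb10 and Zim1) to 0.92 (Phlda2), and 21 of the 36 were positive. Their median was 0.022, beside 50% positive and a median of 0 over all genes. Apart from Phlda2, Calcr (0.35) and Ascl2 (0.32), every measured member differed by at most 0.3 in either direction.

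The 18 paternally expressed genes had a median difference of 0.036, with 12 positive and a range from -0.14 (Igf2) to 0.25 (Zrsr1). The 17 maternally expressed genes had a median of 0.018, with 9 positive and a range from -0.27 to 0.92. Against the WT mean, the median of the paternally expressed genes stood at 0.108, 0.059 and -0.014 in Dnmt1KO replicates 1, 2 and 3 and at -0.002, -0.042 and 0.060 in the WT replicates. For the maternally expressed genes it stood at -0.055, -0.002 and -0.075 in Dnmt1KO and at 0.033, -0.049 and 0.045 in WT. In both classes the groups overlapped. Of the 36, 9 are known as imprinted chiefly in brain or placenta: Commd1, Slc22a3, Blcap, Ppp1r9a, Calcr, Inpp5f, Ascl2, Trappc9 and Dcn. All of these but Inpp5f are of the maternally expressed class. Their median difference was 0.032, with 7 positive, against 0.006, with 14 positive, for the 27 broadly imprinted genes. Which copy was expressed in these lungs was not measured. Divided by control region, the 14 paternally expressed genes whose control region is methylated on the maternal copy had a median of 0.035, the 16 maternally expressed genes of such domains 0.008, and the 4 measured genes of domains methylated on the paternal copy (Igf2, Dlk1, Rtl1 and Dio3) 0.079.

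**Figure D1:**
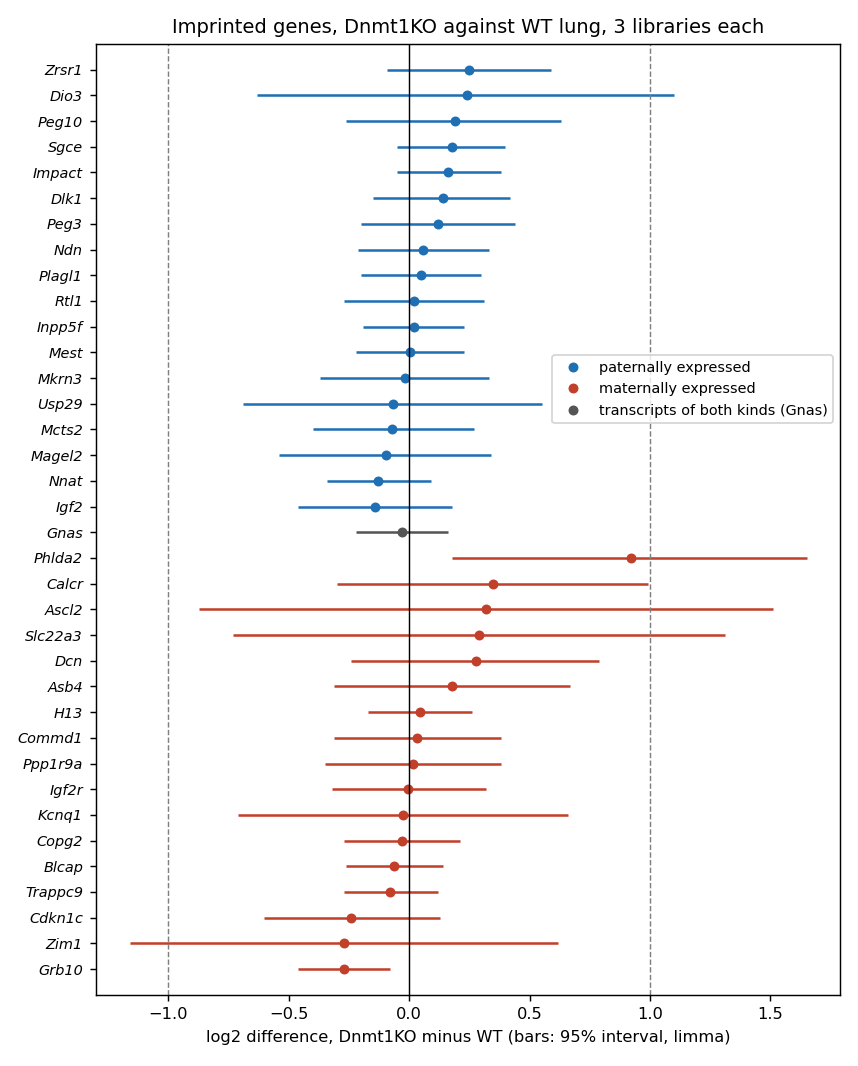
Log2 difference between Dnmt1KO and WT lungs for each of 36 imprinted genes (x axis, points) with its 95% interval from limma (bars), 3 libraries per group, coloured by the parental copy that is expressed; dashed lines mark a halving and a doubling. Most points lie near 0, Phlda2 stands highest at 0.92, and only the bars of Grb10 and Phlda2 do not cross 0.

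How large a change could have gone unseen is given by the intervals. For 31 of the 36 genes the 95% interval of the difference, unadjusted for the number of genes, lay wholly between a halving and a doubling of the level in the whole lung (between -1 and 1 on the log2 scale), as it did for 87.4% of all genes. The exceptions were Dio3, Slc22a3, Zim1, Phlda2 and Ascl2. For 22 of the 36 it lay within 0.5 of 0 on either side, against 66% of all genes. All 17 imprinted genes with at least 1000 reads in every library were inside the wider limits, and 15 of them inside the narrower ones, Cdkn1c and Peg10 being the others. These limits apply to the level of the whole organ, in which a change confined to the epithelium is diluted, and the share of each gene's reads that came from epithelial cells was not measured.

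**Figure D2:**
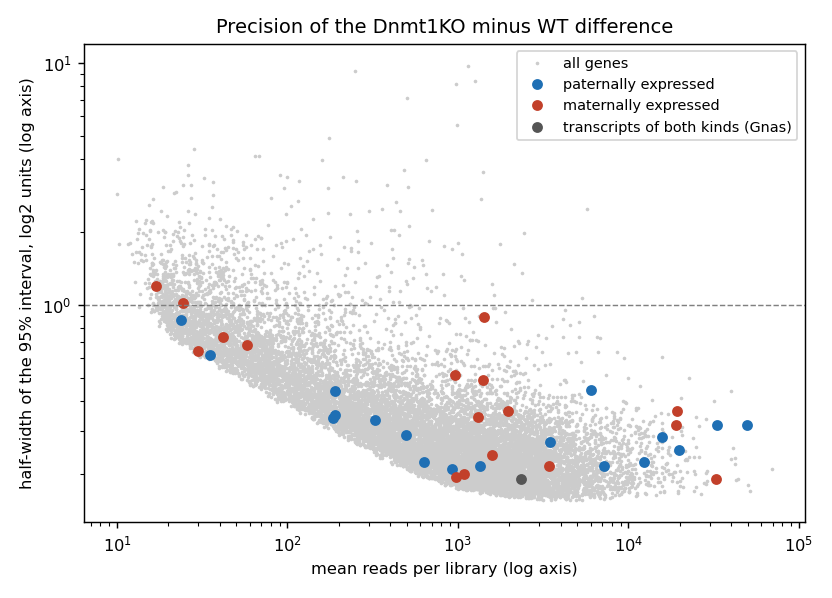
Half-width of the 95% interval of the difference (y axis, log2 units, log axis) against the mean reads per library (x axis, log axis), for all 14162 genes (grey) and the 36 imprinted genes (coloured by expressed copy); the dashed line marks a half-width of 1. Ascl2 and Slc22a3, with few reads, have the widest intervals, and Zim1 lies above most genes of its depth.

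Phlda2 and Zrsr1 are 2 of the 5 genes whose groups did not overlap. Mcts2 and Plagl1 are paternally expressed genes whose starts lie within regions known to be methylated on the maternal copy. Zrsr1 is likewise paternally expressed, in a domain whose control region is methylated on the maternal copy, and Phlda2 is maternally expressed. Their upstream sequences are shown because the cytosines of CpG pairs are what DNMT1 methylates. Each is the 250 bases before the start, read 5′ to 3′ on the gene's strand, with CpG pairs in capitals, from RefSeq on GRCm38.p6, which differs from the build mm9 named in the processing notes.
Phlda2: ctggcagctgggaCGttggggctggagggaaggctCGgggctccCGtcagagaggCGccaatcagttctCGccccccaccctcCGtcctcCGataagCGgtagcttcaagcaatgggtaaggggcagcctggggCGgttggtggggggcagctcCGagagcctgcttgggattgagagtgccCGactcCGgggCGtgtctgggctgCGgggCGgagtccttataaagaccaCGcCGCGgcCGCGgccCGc
Zrsr1: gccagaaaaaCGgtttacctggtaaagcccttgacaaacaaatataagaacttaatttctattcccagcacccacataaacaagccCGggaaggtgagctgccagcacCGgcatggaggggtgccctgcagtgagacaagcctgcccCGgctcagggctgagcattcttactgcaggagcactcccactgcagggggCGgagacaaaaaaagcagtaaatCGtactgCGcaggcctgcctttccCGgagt
Mcts2: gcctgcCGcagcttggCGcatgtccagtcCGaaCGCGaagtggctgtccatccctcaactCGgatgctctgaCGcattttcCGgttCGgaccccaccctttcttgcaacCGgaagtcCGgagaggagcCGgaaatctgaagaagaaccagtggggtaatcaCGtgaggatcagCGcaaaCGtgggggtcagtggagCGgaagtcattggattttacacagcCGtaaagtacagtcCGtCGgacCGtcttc
Plagl1: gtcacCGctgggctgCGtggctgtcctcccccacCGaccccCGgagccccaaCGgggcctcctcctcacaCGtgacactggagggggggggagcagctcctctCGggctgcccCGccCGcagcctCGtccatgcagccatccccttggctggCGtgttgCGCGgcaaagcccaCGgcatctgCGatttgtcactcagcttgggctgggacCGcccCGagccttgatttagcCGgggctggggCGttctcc
They lie at chr7:143502525-143502774 on the minus strand (Phlda2), and on the plus strand at chr11:22971755-22972004 (Zrsr1), chr2:152686898-152687147 (Mcts2) and chr10:13090582-13090831 (Plagl1). These stretches hold 21, 8, 20 and 19 CpG pairs in that order. Promoter windows of 300 bases (250 before to 50 after a start) were used for 28 of the 36 genes, 41 windows in all. Impact was among the genes without a window in this comparison. The 41 windows had a median of 17 CpG pairs against 7 in all 32851 windows. TGCCGC, the core of the motif bound by the imprint-protecting zinc finger protein ZFP57, was searched on both strands. It occurred in 11 of the 41 windows (26.8%), those of Mcts2 and Plagl1 among them, and in 11.6% of all windows. The motif itself holds a CpG pair, and the windows compared were not matched for CpG count, so these shares are no test of enrichment. All windows also include those of genes not measured here. Windows of 1 gene can overlap, and a match of these letters is not a binding site. No methylation was measured in these samples.

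Among the growth regulators, Igf2, the fetal growth factor expressed from the paternal copy on chromosome 7, had log2 values of 17.66, 18.02 and 17.59 in Dnmt1KO replicates 1, 2 and 3 and of 18.03, 17.97 and 17.67 in WT replicates 1, 2 and 3. The groups overlapped, with Dnmt1KO replicate 2 among the highest libraries. The difference was -0.14 ± 0.14 (SE), with a 95% interval of -0.46 to 0.18 (limma adjusted p = 1). Leaving out Dnmt1KO replicate 2 gave -0.27, and leaving out Dnmt1KO replicate 3 gave -0.051. Of Igf2's annotated exon bases, 64.5% are shared with other gene models, one of them on the same strand, so its reads may include some of theirs. Igf2r encodes the receptor that removes IGF2 for degradation and is maternally expressed from chromosome 17. It stood at 16.69, 16.40 and 16.24 in Dnmt1KO and at 16.57, 16.21 and 16.56 in WT. The values of both groups covered nearly the same range, and the difference was -0.0032 ± 0.14 (interval -0.32 to 0.32).

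Grb10, an adaptor that dampens insulin and insulin-like growth factor receptors and is maternally expressed outside neurons, was the gene with the smallest p. Its values were 17.12, 17.16 and 16.98 in Dnmt1KO against 17.37, 17.30 and 17.41 in WT. All 3 Dnmt1KO libraries were lower than all 3 WT libraries, which was true of 3.99% of all genes. The mean was 17.09 ± 0.09 against 17.36 ± 0.05 (SD, n = 3 each), a difference of -0.27 ± 0.08 (SE) with an interval of -0.46 to -0.08. This is a level of 0.830 times that of WT (0.729 to 0.945). Over all genes Grb10 missed the threshold in limma (adjusted p = 0.591, and 0.319 to 1 over the alternatives). Ddc, its imprinted neighbour on chromosome 11 and the gene of dopa decarboxylase, lay the other way, at 11.44, 11.73 and 11.73 in Dnmt1KO and 11.25, 11.18 and 10.76 in WT (0.58 ± 0.15, adjusted p = 0.404). It is named for having the smallest p among 35 other measured imprinted genes.

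The maternally expressed genes of the Kcnq1 domain on chromosome 7 differed in sign. Cdkn1c encodes p57, a cyclin-dependent kinase inhibitor that restrains growth. Its values were 15.97, 16.58 and 16.48 in Dnmt1KO against 16.56, 16.73 and 16.45 in WT. Dnmt1KO replicate 1 was the lowest library and the others lay together. The difference of -0.24 ± 0.16 (interval -0.60 to 0.13, limma adjusted p = 1) became -0.049 without that replicate. A gene model on the opposite strand shares 30.7% of its annotated exon bases.

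Phlda2, a pleckstrin homology gene that limits placental growth, had the largest difference of the 36. Its reads were few, at 45, 50 and 60 in Dnmt1KO and 30, 42 and 24 in WT. On the scaled log2 values, 7.99, 8.0 and 8.19 against 6.93, 7.75 and 6.75, every Dnmt1KO library was above every WT library, as in 4.79% of all genes. The difference was 0.92 ± 0.32 (SE, interval 0.18 to 1.65), and the scaled reads stood in a ratio of 1.87, with an exact 95% interval of 1.44 to 2.44 that covers counting error only. Phlda2 missed the threshold in limma (adjusted p = 0.817), and under every alternative that kept it (0.363 to 1). Its difference was between 0.72 and 1.22 in the fits that each left out 1 library. Kcnq1, a potassium channel gene (-0.025), and Ascl2, a transcription factor gene of the placenta (0.32), had overlapping groups, with intervals of -0.71 to 0.66 and -0.87 to 1.51.

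Of the imprinted zinc finger genes, Plagl1, a gene of chromosome 10 whose product regulates other imprinted genes, stood at 16.71, 16.43 and 16.50 in Dnmt1KO and at 16.33, 16.59 and 16.57 in WT (0.050 ± 0.11, interval -0.20 to 0.30). Dnmt1KO replicate 1 was the highest library and WT replicate 1 the lowest. Peg3, a large zinc finger gene of chromosome 7 linked to apoptosis and maternal behaviour, had values of 17.26, 17.59 and 17.07 in Dnmt1KO and 17.34, 17.04 and 17.19 in WT (0.12 ± 0.14, interval -0.20 to 0.44). The groups overlapped. Zim1, the maternally expressed zinc finger gene beside Peg3, was the most variable member above 100 reads. Its reads were 844, 2062 and 798 in Dnmt1KO and 2236, 1132 and 1476 in WT. Dnmt1KO replicate 2 and WT replicate 1 were high, and the difference of -0.27 ± 0.37 (interval -1.16 to 0.62) became -0.70 without Dnmt1KO replicate 2 and 0.018 without Dnmt1KO replicate 3. Usp29, which starts beside Peg3 on the other strand, had 29 to 45 reads per library (-0.067, interval -0.69 to 0.55).

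At the Dlk1-Dio3 domain on chromosome 12 the 3 measured genes are paternally expressed. Dlk1 encodes a membrane protein related to Notch ligands, which is abundant in fetal mesenchyme. It stood at 16.39, 16.34 and 16.04 in Dnmt1KO and at 16.15, 16.28 and 15.94 in WT, a difference of 0.14 ± 0.12 (interval -0.15 to 0.42). The lowest Dnmt1KO library lay inside the WT range. The difference was 0.24 without Dnmt1KO replicate 3 and 0.044 without WT replicate 3. Rtl1, derived from a retrotransposon and needed in fetal capillaries of the placenta, had a difference of 0.022 (interval -0.27 to 0.31). Dio3, whose enzyme inactivates thyroid hormone, had 16 to 32 reads per library (0.24, interval -0.63 to 1.10).

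The Peg10-Sgce domain of chromosome 6 had positive differences in all 5 measured genes, from 0.018 to 0.35, none past the test. Peg10, a retrotransposon-derived gene needed in the placenta, had values of 15.31, 14.78 and 14.55 in Dnmt1KO and of 14.95, 14.55 and 14.59 in WT. The spread came mainly from Dnmt1KO replicate 1, the highest, and the difference was 0.19 ± 0.19 (interval -0.26 to 0.63). Sgce, which encodes epsilon-sarcoglycan and is read from the opposite strand of the same paternal copy, stood at 11.61, 11.70 and 11.64 in Dnmt1KO against 11.47, 11.36 and 11.59 in WT. All Dnmt1KO libraries were higher than all WT libraries, and the difference was 0.18 ± 0.10 (interval -0.05 to 0.40, limma adjusted p = 1). Calcr, the calcitonin receptor gene, maternally expressed in brain, was covered in Dnmt1KO by 29, 30 and 34 reads, and in WT by 34, 27 and 24. Its scaled values also did not overlap (0.35 ± 0.28, interval -0.30 to 0.99), and the scaled reads stood in a ratio of 1.27 (counting interval 0.933 to 1.72). Asb4, a ubiquitin ligase adaptor gene (0.18), and Ppp1r9a, which encodes the actin-binding neurabin (0.018), had overlapping groups.

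For Mest, which encodes a hydrolase-fold protein and is paternally expressed from chromosome 6, the values were 15.97, 15.87 and 15.70 in Dnmt1KO and 15.90, 15.72 and 15.90 in WT. Its groups overlapped almost fully, and the difference was 0.0059 ± 0.10 (interval -0.22 to 0.23). Copg2, a coatomer gene that is maternally expressed, had a difference of -0.028 (interval -0.27 to 0.21). Mest shares 23.1% of its annotated exon bases with Copg2 on the opposite strand. As the use of strand in counting is not given in the sources used here, reads there cannot be assigned to either gene.

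Of the Prader-Willi domain of chromosome 7, 3 paternally expressed genes were measured. Ndn, a growth-suppressing gene of the MAGE family, stood at 13.85, 14.19 and 14.06 in Dnmt1KO and at 13.78, 14.10 and 14.04 in WT (0.060 ± 0.12, interval -0.21 to 0.33). Replicates of both groups were intermixed. Magel2, of the same family, and Mkrn3, a ring finger gene, had differences of -0.096 and -0.017.

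Several paternally expressed genes lie inside introns of a host gene. Nnat, a small membrane protein gene within Blcap on chromosome 2, stood at 15.00, 14.89 and 15.09 in Dnmt1KO and at 15.17, 15.22 and 14.98 in WT (-0.13 ± 0.09, interval -0.34 to 0.09). WT replicate 3 lay inside the Dnmt1KO range. Blcap, maternally expressed in brain, had a difference of -0.061 (interval -0.26 to 0.14). Mcts2, a retrocopy of Mcts1 whose reads may be divided with its parent gene, was covered by 271 to 376 reads per library (-0.069, interval -0.40 to 0.27), and its host H13, a signal peptide peptidase gene, had a difference of 0.045. Zrsr1, a splicing factor retrocopy inside Commd1 on chromosome 11, was covered in Dnmt1KO by 157, 185 and 223 reads, and in WT by 197, 151 and 199. After scaling, its values of 9.78, 9.88 and 10.08 were all above 9.63, 9.58 and 9.78, equal to 2 decimals at the nearest pair. The difference of 0.25 ± 0.15 (interval -0.09 to 0.59) missed the threshold in limma (adjusted p = 1). Commd1, a copper-handling gene, had a difference of 0.032.

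Gnas, the gene of the stimulatory G protein alpha subunit, had 13.43, 13.53 and 13.33 in Dnmt1KO and 13.52, 13.44 and 13.43 in WT. With a range of 0.19 over the 6 libraries it was the steadiest of the 36 (-0.031 ± 0.08, interval -0.22 to 0.16). Its maternally and paternally expressed first exons were counted as 1 gene, and 22% of its exon bases are shared with other models. Impact, a regulator of translation under amino acid shortage, stood at 12.84, 12.67 and 12.67 in Dnmt1KO and at 12.56, 12.45 and 12.68 in WT (0.16 ± 0.09, interval -0.05 to 0.38). Only WT replicate 3 reached the Dnmt1KO values. Dcn, the matrix proteoglycan decorin, known as imprinted in placenta, had 11.75, 12.73 and 12.27 in Dnmt1KO and 12.11, 11.78 and 12.03 in WT (0.28 ± 0.22, interval -0.24 to 0.79). Dnmt1KO replicate 2 was highest and replicate 1 lowest, and without replicate 2 the difference was 0.036. Inpp5f, Trappc9 and Slc22a3 had differences of 0.021, -0.077 and 0.29 with overlapping groups.

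**Figure D3:**
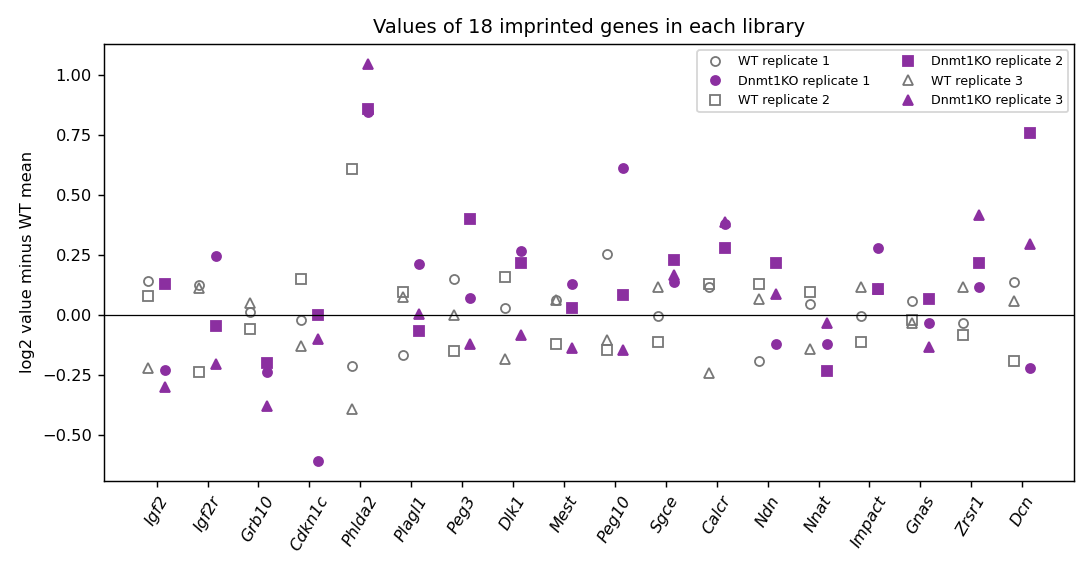
Log2 value of 18 imprinted genes in each library minus the gene's WT mean (y axis), WT in open grey and Dnmt1KO in filled purple symbols, with the symbol shape giving the replicate number. Grb10, Phlda2, Sgce, Calcr and Zrsr1 show separate groups. In Cdkn1c and Peg10 a single Dnmt1KO library lies apart, and in Dcn the Dnmt1KO libraries are widely spread.

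In all, the groups did not overlap in 5 of the 36 genes (13.9%), against 8.78% of all genes, with 4 higher and 1 lower in Dnmt1KO. An exact two-sided permutation test gives p = 0.1 for any gene without overlap, the smallest that 3 libraries against 3 allow. That value follows from the way these genes were chosen and adds nothing to the lack of overlap. Of the 7 genes with fewer than 100 reads in some library, 2 were among them, and of the 17 with at least 1000 reads in every library, 1, Grb10.

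Levels of the imprinted genes spanned nearly the whole range of the lung's genes. On RPKM, reads scaled for depth and for annotated exon length so that genes can be compared, Cdkn1c ranked 28th of 13967 genes in WT lungs at 470 ± 46.2 (SD, n = 3), followed among the 36 by Igf2, 34th at 418 ± 53.5, which differ by about the size of their spread. Nnat (191 ± 16.2) and Grb10 (181 ± 6.84) came next and overlapped within their spread, then Mest (146 ± 10.5), Dlk1 (124 ± 14.5), Plagl1 (116 ± 11.5), Peg3 (110 ± 11.3) and Igf2r (94.4 ± 12.8), of which neighbours from Mest down did not differ beyond their spread. In Dnmt1KO lungs the levels were 405 ± 85.3 for Cdkn1c, 381 ± 64.0 for Igf2 and 150.0 ± 9.37 for Grb10. Of the 36, 11 were in the highest 10% of genes and 9 in the lowest 25%, where Usp29, Slc22a3 and Calcr stood last. Together they took 1.0% to 1.19% of the reads in Dnmt1KO libraries and 1.09% to 1.17% in WT.

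**Figure D4:**
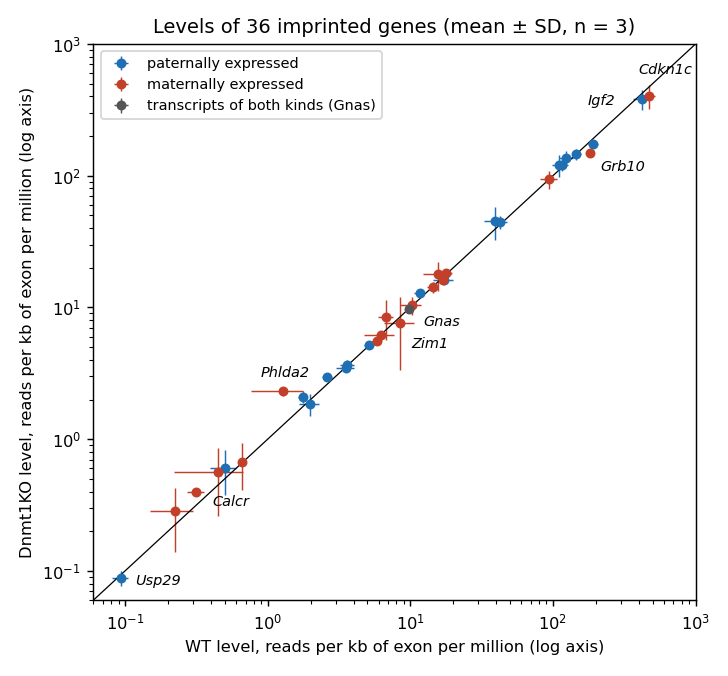
Level of each imprinted gene in Dnmt1KO (y axis) against WT (x axis), in RPKM on log axes, as mean ± SD over 3 libraries, coloured by expressed copy; the line marks equal levels. WT levels run from 0.093 for Usp29 to 470 for Cdkn1c, and the points follow the line.

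Of 35 other measured imprinted genes, none passed limma's test, with 20 positive and a median of 0.019. At an unadjusted p under 0.05 there were 5, against 4.52% of all genes, and the groups did not overlap in 8 (22.9%), against 8.78% of all genes. After Ddc the smallest p belonged to the paraoxonase genes Pon3 (0.46 ± 0.18, adjusted p = 0.911) and Pon2 (0.27 ± 0.11, 1) of the Peg10-Sgce domain, where all Dnmt1KO libraries were higher, and to Zdbf2 (-0.33 ± 0.14, 1). None of 27 genes that maintain or read imprints passed. Dnmt1 itself was at 15.57, 15.40 and 15.31 in Dnmt1KO and 15.72, 15.74 and 15.76 in WT (-0.31 ± 0.09, limma adjusted p = 0.507), all Dnmt1KO libraries being lower. Its partner Uhrf1, which brings DNMT1 to newly copied DNA, had a difference of -0.18 ± 0.08 (adjusted p = 1). Of 25 insulin-like growth factor pathway genes none passed and 9 were positive. The one with the smallest p was Igfbp7, a binding protein gene (-0.33 ± 0.22, adjusted p = 1).

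Markers of the tissue and of other cell types were compared as summed CPM, reads scaled for depth. All 12 lung epithelium markers, among them Nkx2-1 and Epcam, and all 13 mesenchyme markers had reads in every library. Epithelial markers summed to 692 to 1010 in Dnmt1KO and 834 to 973 in WT, and mesenchymal markers to 5560 to 6780 and 5370 to 6480, so both sums overlapped. Single markers within them did not all overlap, although none passed limma's test. Of the 12 epithelial markers 5 had positive differences, and Shh, the ligand whose locus drives Cre, stood at 10.98, 11.59 and 11.88 in Dnmt1KO and 12.22, 12.65 and 12.51 in WT (-0.98 ± 0.22, adjusted p = 0.213). The endoderm factor genes Foxa2 (-0.42 ± 0.18, adjusted p = 1) and Nkx2-1 (-0.32 ± 0.15, adjusted p = 1) had overlapping groups. The 5 positive differences, among them those of Epcam (0.037 ± 0.18) and Cdh1 (0.17 ± 0.16), reached 0.33 at most. Among mesenchymal markers all Dnmt1KO libraries were lower for the transcription factor gene Foxf1 (-0.38 ± 0.09, adjusted p = 0.261) and higher for the proteoglycan gene Lum (0.51 ± 0.14, adjusted p = 0.467). Fewer cells of a type and less RNA per cell cannot be told apart in these samples. Erythroid markers summed to 1980 to 3420 against 1450 to 2180, which overlapped, with all 11 higher on average in Dnmt1KO. Of 8 liver markers listed, 4 were measured. They summed to 14.8 to 28.4 against 3.01 to 5.39, which did not overlap. No gene with fewer than 60 reads in total was present, so a marker with few reads in both groups could not enter these sums. Each WT library held only 2 to 4 reads of Apob, 2 to 19 of Alb and 10 to 14 of Apoa1. For Afp the WT range was 56 to 74. How far the choice of measured markers shaped the separation was not tested. Sums of smooth muscle, endothelium, neural, mesothelium and cartilage markers overlapped between the groups. Heart markers reached 430.0 in Dnmt1KO replicate 2 and lay between 34.0 and 93.0 in the other libraries. Their part in the values of the imprinted genes was not tested. Total reads ran from 18192629 to 25597662 per library. Dnmt1KO replicate 1 held 3 reads over 4 Y-linked genes and the other 5 libraries 4155 to 5207, so sex was not balanced. Without that library no imprinted gene passed the test either, and the median difference of paternally expressed genes was -0.023.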

How the data were processed

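RNA-seq tables of 6 lung libraries were used, 3 per genotype, grouped by the labels. The authors deposited 1 value per Ensembl gene identifier, headed SIGNAL in the files. These deposited values were read as log2 from their range. Raising 2 to each gave whole reads plus 0.5, times a constant of the library, within 1e-06 reads for 100% of genes. The submitters' processing notes name STAR, limma and mm9. How reads were counted, scaled, filtered and assigned to strands is not given in the sources used here, but no gene had fewer than 60 reads in total.

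Symbols came from GENCODE's GRCm38 annotation for 13967 of 14162 identifiers, as did exon lengths and chromosomes. The deposited log2 values of all genes were fitted with limma 3.58.1 (R 4.3.3), with genotype as the only term (trend and robust moderation, Benjamini-Hochberg adjustment over all genes, threshold 0.05) and was tested on simulated data. Intervals are limma's 95% intervals. Summed marker levels and levels per kilobase used reads scaled by the deposited constants. Members, lists and parental classes were chosen with earlier results of these data known, the classes from general knowledge. Values per library are given for genes with an unadjusted p under 0.05, genes without overlap and the lead genes of each domain. Zim1, Mcts2 and others named beyond these were chosen after their values were seen. Alternatives were a replicate block, removal of the lowest 25% of genes, quantile normalization, median centring, plain moderation, sample weights, voom on the recovered reads and leaving out each library.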

Additional observations from a re-analysis of the deposited data

How the results depend on the processing

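No imprinted gene was called in either direction under any of the 13 alternatives, the lowest adjusted p being 0.319 (Grb10, sample weights). Over all genes, 40 were called higher and 1 lower. With the replicate block these were 26 and 0, with the lowest 25% of genes left out 0 and 0, with voom on the recovered reads 24 higher, without trend and robust estimation 0 lower and with sample weights 12 lower. As each library was left out, 15 to 42 were called higher and 0 to 17 lower. The fewest higher, 15, came without Dnmt1KO replicate 1, leaving out WT replicate 3, or Dnmt1KO replicate 2, gave 25, and the 17 lower were found with Dnmt1KO replicate 3 left out. Nothing in the labels ties same-numbered libraries to 1 litter. Their deviations from the group means correlated at -0.00274, -0.18 and 0.306 for replicates 1, 2 and 3 over genes. Replicate 3 correlated best with its own number in both groups, but not every library did. Such deviations are not independent within a group, so they cannot show whether litters were shared. The median difference ran from -0.020 to 0.055 for all members, from -0.023 to 0.078 for paternally and from -0.044 to 0.051 for maternally expressed members as each library was left out, the paternal median being -0.023 without Dnmt1KO replicate 1 and the maternal -0.044 without WT replicate 2. Of 461 values of single members under the alternatives, 409 kept their sign and 52 did not, in 24 members whose main differences were at most 0.32. With sample weights the sign turned for Plagl1 (-0.011), Commd1 (-0.047), Gnas (0.017), Zim1 (0.057), Mkrn3 (0.021), Inpp5f (-0.039), Igf2 (0.030) and Kcnq1 (0.016), and with quantile normalization for Dio3 (-0.16), Slc22a3 (-0.16) and Ascl2 (-0.31). As each library was left out, the range crossed 0 in 23 members: -0.035 to 0.11 for Plagl1, -0.10 to 0.14 for Commd1, -0.079 to 0.10 for Rtl1, -0.047 to 0.43 for Dio3, -0.12 to 0.098 for Igf2r, -0.087 to 0.52 for Slc22a3, -0.079 to 0.017 for Gnas, -0.20 to 0.032 for Mcts2, -0.044 to 0.11 for H13, -0.031 to 0.35 for Peg10, -0.012 to 0.36 for Asb4, -0.14 to 0.20 for Ppp1r9a, -0.055 to 0.08 for Mest, -0.11 to 0.046 for Copg2, -0.027 to 0.23 for Peg3, -0.13 to 0.04 for Usp29, -0.70 to 0.018 for Zim1, -0.038 to 0.15 for Ndn, -0.24 to 0.038 for Magel2, -0.086 to 0.096 for Mkrn3, -0.037 to 0.083 for Inpp5f, -0.32 to 0.21 for Kcnq1 and -0.081 to 0.69 for Ascl2. Without crossing 0, at least 1 of these fits differed from the main difference by a factor over 1.5 in Igf2 (-0.27 to -0.051), Dlk1 (0.044 to 0.24), Cdkn1c (-0.35 to -0.049) and Dcn (0.036 to 0.53). The same was true of Nnat (-0.20 to -0.077), Blcap (-0.11 to -0.025), Trappc9 (-0.11 to -0.043) and Calcr (0.23 to 0.41). The remaining ranges were -0.30 to -0.22 for Grb10, 0.17 to 0.31 for Zrsr1, 0.11 to 0.22 for Impact, 0.12 to 0.24 for Sgce and 0.72 to 1.22 for Phlda2. The cause of these turns and shifts was not tested. With the lowest 25% of genes left out, 7 members had no value. Intervals were widest for Ascl2, Slc22a3, Zim1, Dio3 and Phlda2, of which all but Zim1 had few reads.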
